A study of Macaca mulatta with 14 samples.

Results

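The testes of 2 late-life rhesus macaques, aged 22 and 26 years (8104 and 9518 days), were compared with those of 2 young adults, aged 6 and 7 years (2355 and 2570 days). The 4 animals were put in their groups by their age labels. They gave 4 of the 14 libraries and are 4 of the 12 animals of a small RNA time course that starts at 16 days. All 538 miRNA names of the deposited table were considered, and 322 of them reached 1 RPM (reads scaled to a common library total) in at least 3 of the 12 animals and were tested. No genotype or treatment distinguishes the animals. All were described as healthy males that died suddenly, and the tissue was taken after death. Each of the 4 animals gave 1 library of whole testis, so a lower value can mean fewer cells of a type or less of the miRNA per cell, and these cannot be told apart.

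miRNAs are short RNAs that guide Argonaute proteins to partly matching messenger RNAs and lower their translation and stability. One hairpin precursor can give a mature miRNA from either strand, and one of the strands carries a star in the naming used here. In the adult testis, germ cells at meiosis and later carry large amounts of miR-34b/c and miR-449. Cells of the tubule wall and the interstitium contribute miRNAs such as miR-143 and miR-199. Recovery of a miRNA in a library also depends on how well its ends are ligated, so ranks between miRNAs describe reads, not molecules.

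The listed miRNAs held 33.7% of the library at 6 years and 14.9% at 7 years, against 9.00% at 22 years and 18.1% at 26 years. The 26-year value lay between the young adults, so the groups overlapped. The means were 13.5% ± 6.41 (SD, n = 2) in late life and 24.3% ± 13.3 (SD, n = 2) in young adults, a difference of -10.8 percentage points. A two-sided exact permutation test gave p = 0.667, and 2 against 2 animals cannot give less than 0.333. Leaving out the 6-year animal reduced the difference to -1.35 points, and leaving out the 7-year animal enlarged it to -20.2. The other 10 libraries reached up to 79.3%. Library totals were 3369245, 5154335, 5620503 and 4599057 reads at 6, 7, 22 and 26 years.

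**Figure D1:**
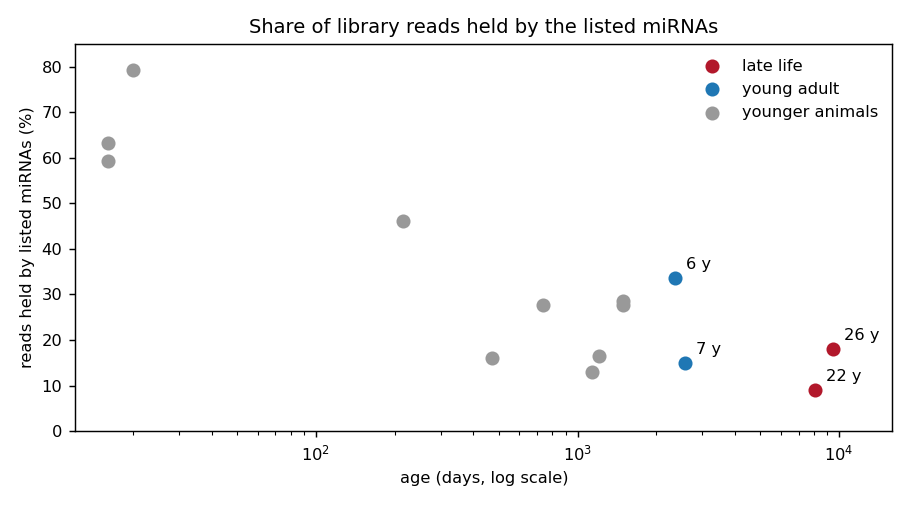
Percentage of each library's reads held by the listed miRNAs (vertical axis) against age in days on a log axis, 1 point per library. The late-life libraries (9.00% and 18.1%) and the young adult libraries (14.9% and 33.7%) overlap.

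Deposited RPM values are relative to a library total of which the listed miRNAs held only a part. The labels do not define the make-up of that total. The median log2 difference between late life and young adult was -0.60 on the deposited scale, and 271 of the 322 tested names had a lower log2 mean in late life. The 2 pairs of animals differed in this: the median was 0.18 for 26 against 7 years and -1.39 for 22 against 6 years. On this scale 105 names were lower in both pairs, 17 were higher in both and 198 had opposite signs. A second scale divided each library by the median of the 276 names found above 0 in every library. This multiplied the deposited values by 0.962, 2.01, 3.43 and 1.61 at 6, 7, 22 and 26 years. After this median scaling the median log2 difference was -0.05, with 152 names higher and 170 lower. Differences below are on the median-scaled log2 scale unless the deposited scale is named.

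limma called 0 of the 322 names (0%) at an adjusted p of 0.05 on either scale. Before adjustment 11 names had p under 0.05 on the deposited scale, all lower in late life, and 11 after median scaling, 4 higher and 7 lower. edgeR with TMM, edgeR with the deposited totals and DESeq2, run on reads recovered from the RPM steps, also called 0. The median 95% confidence interval, not adjusted for the number of names, reached 1.05 log2 units to either side of a difference. Most differences under a doubling could thus not be told from 0 with these animals. Larger differences were not called either, among them -1.88 for miR-339-3p (limma, adjusted p = 0.604). The values that follow are therefore given per animal, as descriptions.

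The young adults differed from each other more than the late-life animals did. The median absolute log2 difference, over names with 10 RPM or more in each of the paired libraries, was 0.487 between the young adults (133 names) and 0.263 between the late-life animals (111 names). The 4 pairs of 1 young adult with 1 late-life animal gave 0.301 to 0.497. At 0.301, the 7- and 26-year animals were closer than the young adults were to each other. The pairs of technical libraries from the animals of 16 and 1487 days gave 0.312 and 0.208. A difference over 1 was seen in 19.5% of names between the young adults and in 4.50% between the late-life animals. With 1 pair per group, this contrast in spread was not tested.

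**Figure D2:**
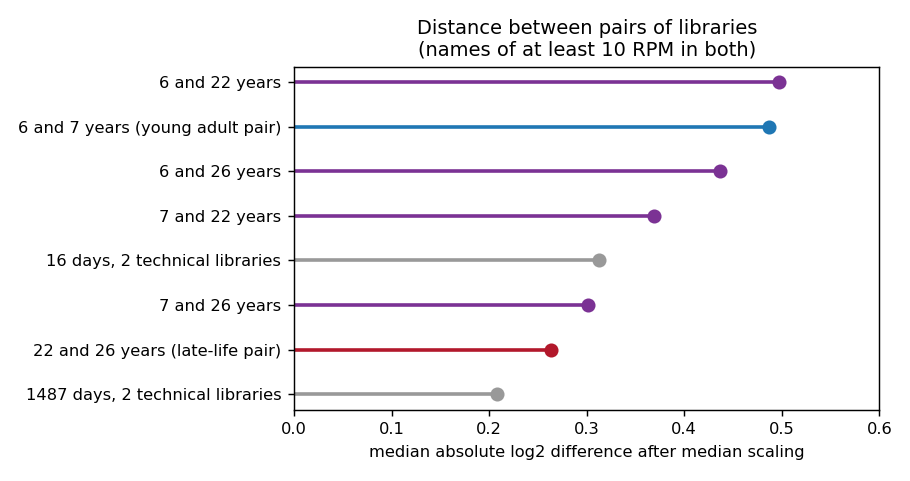
Median absolute log2 difference after median scaling (horizontal axis) for 8 pairs of libraries, over names of at least 10 RPM in both. The young adult pair lies at 0.487, the late-life pair at 0.263 and the pairs across the age groups at 0.301 to 0.497.

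The leading miRNAs were the same in both age groups. let-7f, let-7g, miR-34c-5p, let-7a and let-7c were the 5 most abundant names of each group by mean RPM. let-7 miRNAs accumulate as cells differentiate and are held down by LIN28 in stem and early germ cells. let-7f stood at 92334, 38642, 19683 and 52199 RPM at 6, 7, 22 and 26 years, and was first in every animal but the one of 22 years, where it was second. Its groups overlapped on both scales, with a difference of -0.15 (95% interval -0.61 to 0.32). The let-7 family held 63.6%, 62.0%, 52.9% and 64.3% of the listed reads in the same order. Of its 10 tested members, 9 were lower in late life, and the family's median difference was -0.18. After median scaling 4 of the 10 were lower without overlap, against 20.2% of all tested names. Requiring TMM scaling and scaling to the listed reads as well left 0 of them, against 11.5%. On the deposited scale 1 of the 10 was lower without overlap, against 26.7% of all tested names.

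miR-34c-5p, the main germ cell miRNA of this family, stood at 37698, 15138, 21515 and 16320 RPM at 6, 7, 22 and 26 years. It ranked first in the 22-year animal and was the third in each of the others. After median scaling the 22-year animal had 73704 and the 26-year animal 26205, on either side of the young adults at 36250 and 30498. The difference of 0.40 had an interval of -5.67 to 6.47. That interval takes its spread from all 5 age groups, and the peripubertal animals alone ran from 143 to 19819. The miR-34 and miR-449 family held 24.0% of the listed reads at 22 years, against 11.3%, 10.2% and 9.10% at 6, 7 and 26 years. All 6 members had positive differences (median 0.40), yet for none did the groups separate after median scaling. On the deposited scale the median was -0.33, and 1 of the 6, miR-34b, separated upward, beside 2.17% of all tested names. In share of the listed reads the late-life animals lay on either side of the young adults, and reads of this germ cell family were abundant in both groups.

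The groups were next compared name by name, asking whether both late-life animals lay on the same side of both young adults. On the deposited scale late life was higher without overlap for 7 names (2.17%) and lower for 86 (26.7%). After median scaling the counts were 64 (19.9%) and 65 (20.2%). With TMM factors in place of the median they were 76 and 41, and with scaling to the listed reads 67 and 51. Requiring both the deposited and the median scale left 6 higher (1.86%) and 39 lower (12.1%). Each run of library numbers (1 to 7 and 8 to 14) holds 1 animal of each group. After median scaling the difference had the same sign in both runs for 179 names, 86 higher and 93 lower, and opposite signs for 141. Among the 149 names with a mean of at least 10 RPM, 12 were lower on both scales and 0 were higher.

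Those 12 were miR-320b, miR-181b, miR-29b, miR-186, miR-16, miR-374b, miR-320a, miR-378, miR-181a, miR-510, miR-15a and miR-660. Their differences ran from -0.80 to -0.44 after median scaling, and all 12 intervals included 0. On the deposited scale the same differences ran from -1.50 to -1.14, beside a median of -0.60 over all tested names. Separation also held under TMM and listed-read scaling for 10 of them, the exceptions being miR-378 and miR-660. That direction was fixed by the choice of names and adds no support.

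miR-181b, a regulator of lymphocyte development whose hairpins lie next to those of miR-181a, had the widest gap of the 12. It stood at 328, 169, 55.7 and 123 RPM at 6, 7, 22 and 26 years, and at 316, 341, 191 and 197 after median scaling. The late-life animals lay close together and well below both young adults, with a difference of -0.76 (95% interval -1.70 to 0.19). Within libraries 1 to 7 (26 against 7 years) the difference was -0.79, and within libraries 8 to 14 (22 against 6 years) it was -0.72. The shared sign was fixed by the choice of this name. On the deposited scale the same differences were -0.46 and -2.54. miR-181a stood at 402, 561, 341 and 341 median-scaled RPM, with a difference of -0.48 (interval -1.25 to 0.29). Of the 7 tested miR-181 names 6 were lower and 3 separated after median scaling (miR-181a, miR-181b and miR-181c), against 20.2% of all tested names. For miR-181c the gap between the nearest animals was only -0.02 log2 units, and its groups overlapped on the deposited scale. Requiring TMM and listed-read scaling as well left 2 of the 7, against 11.5% of all tested names. The family held 0.257%, 0.329%, 0.193% and 0.220% of the listed reads, and both late-life shares lay below the lowest of the other 10 animals, 0.224%.

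miR-15a and miR-16, which restrain cell cycle genes and share a hairpin cluster, were both among the 12. miR-16 stood at 673, 484, 388 and 378 median-scaled RPM at 6, 7, 22 and 26 years, a difference of -0.57 (95% interval -1.54 to 0.39). miR-15a stood at 67.4, 78.6, 46.9 and 58.3, a difference of -0.47 (interval -1.35 to 0.41). Both late-life animals were below both young adults for each. miR-16 has a second hairpin beside miR-15b, so its reads can come from either cluster.

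miR-29b, a repressor of collagen and DNA methyltransferase messages, stood at 111, 73.1, 57.3 and 49.2 median-scaled RPM in the same order of ages. The late-life animals were lowest, with a difference of -0.75 (95% interval -2.03 to 0.52). Its family members did not share this: miR-29a had a difference of -0.25 and miR-29c of 0.19, both with overlapping groups. miR-29a was by far the more abundant, at 6026, 6634, 4704 and 6038.

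miR-320a and miR-320b are near-identical in sequence and can share reads, so their values are not independent. miR-320a, which matures without Drosha, stood at 2564, 1857, 1629 and 1459 median-scaled RPM and was the most abundant of the 12. Its difference was -0.50 (95% interval -1.22 to 0.22). miR-320b stood at 24.3, 16.4, 9.75 and 12.6, a difference of -0.80 (interval -1.67 to 0.08). The 6-year animal was highest for both.

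X-linked miRNAs were represented among the 12 by miR-510, miR-374b and miR-660. miR-510, of the testis-enriched miR-506 family, stood at 1392, 1540, 936 and 1192 median-scaled RPM (difference -0.47, 95% interval -1.14 to 0.20). After median scaling the family did not move as a block: of 12 tested members, 6 were higher and 6 lower, with a family median of -0.18. On that scale 2 of the 12 separated upward and 1 downward, beside 19.9% and 20.2% of all tested names. miR-509-3p, at 39.1, 40.3, 59.1 and 93.2, was among those separated upward (0.89, interval -0.20 to 1.98). On the deposited scale 0 of the 12 separated upward and 7 downward, beside 2.17% and 26.7% of all tested names. Among the 31 other X-linked names tested the median difference was -0.30, with 3 separated upward and 8 downward, beside 19.9% and 20.2% of all tested names. On the deposited scale 1 of these 31 separated upward and 13 downward, beside 2.17% and 26.7%. miR-503, an X-linked relative of miR-16, stood at 741, 300, 199 and 297 median-scaled RPM. Its difference of -0.95 (interval -2.04 to 0.13) rested mostly on the high 6-year value, and the 7- and 26-year animals were nearly equal. miR-186 stood at 90.8, 105, 66.4 and 61.4 and miR-378 at 264, 383, 197 and 263, the latter with a gap of only -0.01 log2 units between the nearest animals.

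No name of at least 10 RPM was higher in late life on both scales. Among names whose groups did not overlap after median scaling, the 12 with the largest upward differences on that scale, a list added after the data were seen, were miR-520a-3p, miR-145*, miR-192, miR-371-5p, miR-509-3p, miR-375, miR-28-5p, miR-193b*, miR-499-5p, miR-1323, miR-25 and miR-30a*. Their differences ran from 0.45 to 1.12, but on the deposited scale all 12 overlapped and 6 had a negative difference. With edgeR and the deposited totals 6 were also negative, with miR-375 in place of miR-28-5p. Scalings that centre the libraries much as the median does (TMM, DESeq2, listed reads) gave positive differences, a sign largely fixed by the choice of names. Under TMM or listed-read scaling the groups overlapped for miR-145*.

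**Figure D3:**
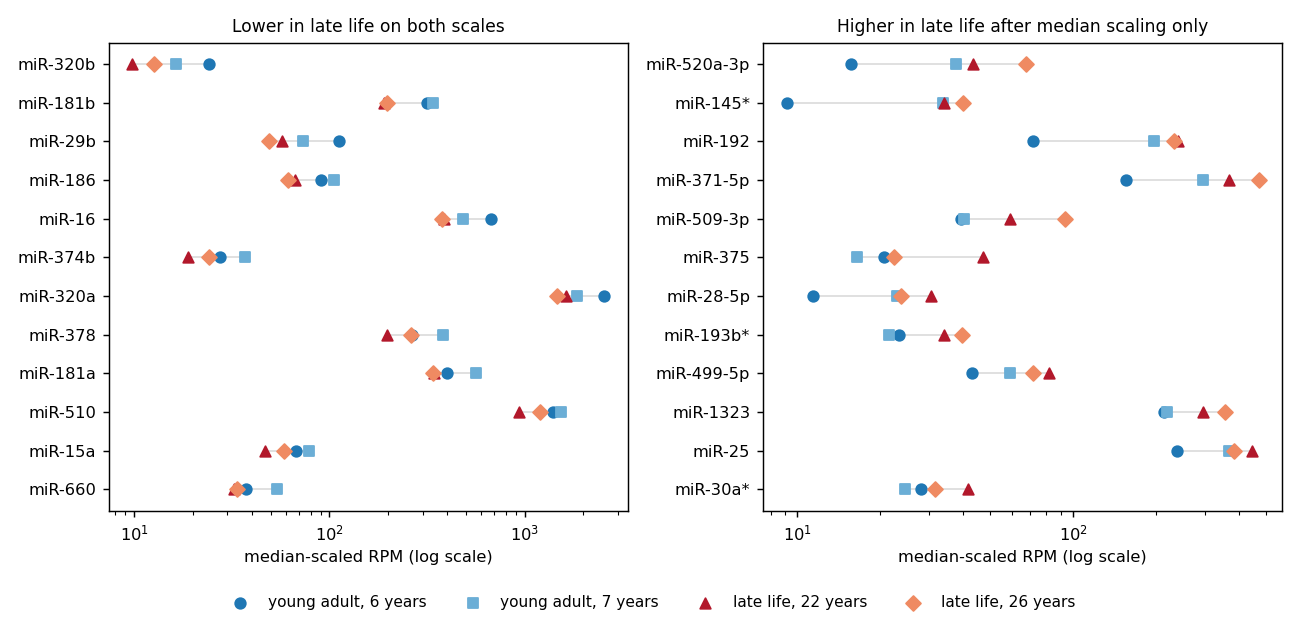
Median-scaled RPM on a log axis in each of the 4 animals, for the 12 names lower in late life on both scales (left) and the 12 higher after median scaling only (right; on the deposited scale these overlap and 6 have a negative difference). miR-181b on the left shows both late-life animals at 191 to 197 against 316 to 341, and miR-192 on the right shows a single low animal, that of 6 years, at 71.4.

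miR-520a-3p and miR-1323 come from C19MC, a primate-specific cluster on the chromosome known in humans as 19 that is best known from the placenta. miR-520a-3p stood at 15.7, 37.5, 43.3 and 67.4 median-scaled RPM at 6, 7, 22 and 26 years (difference 1.12, 95% interval -1.02 to 3.26). miR-1323 stood at 213.5, 218, 296 and 355 (difference 0.58, interval -0.99 to 2.16), so both late-life animals were above the closely matched young adults. Of the 51 C19MC names 26 were tested. Their median difference was 0.48, against -0.05 over all tested names, with 19 positive. After median scaling 8 separated upward and 1 downward, beside 19.9% and 20.2% of all tested names. C19MC names hold similar sequences and can share reads. The cluster held 0.129%, 0.174%, 0.216% and 0.231% of the listed reads, and both late-life shares lay above the highest of the other 10 animals, 0.174%. On the deposited scale 2 of the 26 separated upward and 3 downward, beside 2.17% and 26.7% of all tested names.

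miR-371-5p, from the neighbouring cluster expressed in pluripotent cells, stood at 155, 296, 366 and 471 median-scaled RPM. Its difference was 0.95 (95% interval -0.57 to 2.47). On that scale both late-life animals exceeded all 10 others, as they did for 26 of the 322 tested names. On the deposited scale miR-371-5p stood at 161, 147, 107 and 293 RPM, so the groups overlapped. Its cluster mate miR-372 stood at 230, 274, 268 and 248, with overlapping groups and a difference of 0.04 (interval -1.65 to 1.72).

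For several other names the upward difference rested on a low 6-year value. miR-192, a p53-responsive miRNA, stood at 71.4, 197, 239 and 232 median-scaled RPM. Its difference was 0.23 between the 26- and 7-year libraries and 1.73 between the 22- and 6-year libraries, and 0.98 (95% interval -0.05 to 2.02) over the 4. miR-25, from an intron of MCM7, stood at 238, 368, 444 and 382 (0.48, interval -0.30 to 1.25). miR-375, known from endocrine cells, stood at 20.5, 16.4, 46.9 and 22.3, and there the 22-year animal alone was high.

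miR-193b* had a more even pattern, at 23.4, 21.5, 34.1 and 39.5 median-scaled RPM (difference 0.69, 95% interval -0.16 to 1.53). Both late-life animals were above both young adults by at least 0.53 log2 units. The miR-193b and miR-365 hairpins lie next to each other in RefSeq's macaque annotation. Their other 2 tested names also separated upward after median scaling, from few and similar reads. At 6, 7, 22 and 26 years miR-193b had 6, 3, 6 and 6 reads and miR-365 had 6, 5, 5 and 7. On the deposited scale both overlapped, with differences of 0.06 and -0.10. miR-365 also has a hairpin elsewhere, so its reads can come from either place.

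The largest differences of all belonged to names with few reads, and they are named here after their values were seen. miR-196a, encoded within HOX gene clusters, stood at 13.9, 5.43, 1.25 and 0.217 RPM, from 47, 28, 7 and 1 reads. Its deposited-scale difference of -2.57 had the smallest adjusted p of the comparison (limma, adjusted p = 0.0744), and after median scaling it was -2.30 (95% interval -4.76 to 0.16). In pooled reads the late-life level was 0.0890 times the young adult level per total reads (95% exact interval 0.0371 to 0.184, counting error only), and 0.144 times after median scaling (0.0598 to 0.298). Its relative miR-196b had 5, 15, 0 and 1 reads. The late-life animals were lowest of the 4 for both, yet not of the whole series: peripubertal animals ran from 0.0838 to 21.2 median-scaled RPM for miR-196a.

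miR-339-3p stood at 13.9, 4.66, 0.890 and 1.09 RPM, from 47, 24, 5 and 5 reads. After median scaling it was 13.4, 9.38, 3.05 and 1.75, a difference of -1.88 (95% interval -2.93 to -0.82; limma, adjusted p = 0.604, the smallest on that scale). Both late-life animals were below both young adults by over 1 log2 unit. The other strand of the hairpin, miR-339-5p, had 23, 10, 4 and 7 reads and was also lowest in late life, with a difference of -0.82. A gap of at least 1 log2 unit between the nearest animals of the 2 groups on both scales was seen for miR-196a and miR-339-3p only, and after median scaling for miR-376b as well, upward, with 3, 2, 5 and 9 reads.

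**Figure D4:**
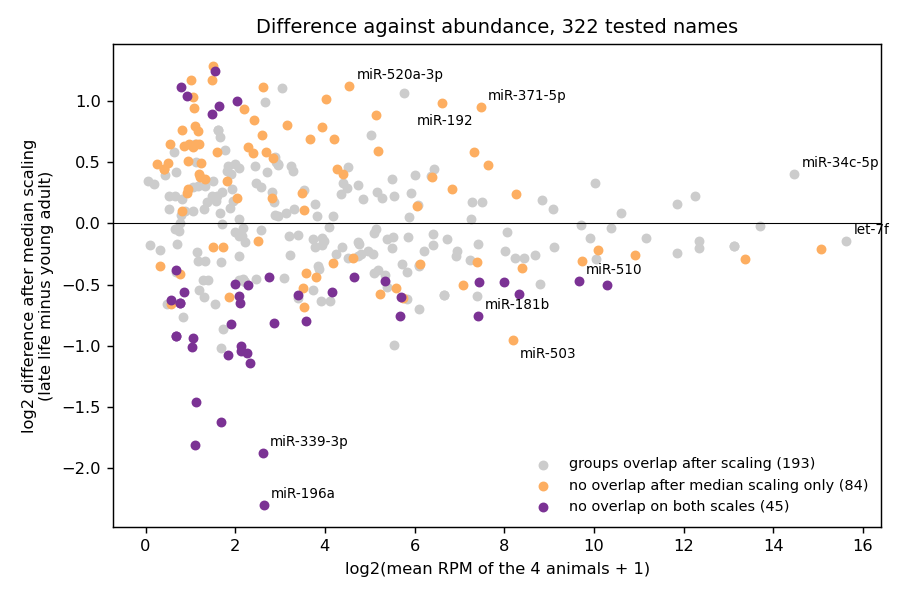
Median-scaled log2 difference (late life minus young adult) against log2 of the mean RPM of the 4 animals plus 1, for the 322 tested names. Purple points do not overlap on both scales (45 names) and orange points after median scaling only (84); the widest differences lie at low abundance, and no call passed the adjusted threshold.

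Markers of other cell types were read from the same libraries. miR-143, abundant in smooth muscle and peritubular cells, stood at 5724, 10152, 7639 and 10342 median-scaled RPM, and miR-199a-3p, of fibroblast-like cells (its reads match those of miR-199b-3p within 2% in every library), at 12077, 20434, 13524 and 14121. Both overlapped, with differences of 0.22 and -0.18. The 4 tested names of miR-143 and miR-145 had a median of 0.18 and the 5 of miR-199 and miR-214 one of -0.18. After median scaling 2 of the 4, miR-143* and miR-145*, separated upward, beside 19.9% of all tested names. Of the 5, 1 separated downward, beside 20.2%. On the deposited scale 0 of the 4 separated, and 4 of the 5 separated downward, beside 26.7% of all tested names. miR-1 of muscle (7118, 3861, 5534 and 6194) overlapped. Of the 3 tested names of the muscle list, 1 separated upward after median scaling, miR-499-5p, beside 19.9% of all tested names. On the deposited scale 0 of the 3 separated.

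Blood cell miRNAs varied between single animals. miR-451, of red blood cells, stood at 148, 103, 149 and 38.1 median-scaled RPM, so the 26-year animal was low and the 22-year animal matched the 6-year one. The red cell list had a median difference of -0.47, with 1 of 5 names separated upward and 0 downward, beside 19.9% and 20.2% of all tested names. On the deposited scale 4 of the 5 separated downward, beside 26.7%. miR-142-5p, of white blood cells, stood at 29.4, 124, 121 and 135, where only the 6-year animal was low. The white cell list summed to 0.0116%, 0.0444%, 0.0421% and 0.0509% of the listed reads, and the red cell list to 0.0566%, 0.0451%, 0.0607% and 0.0201%. The part of blood in the differences above was not tested.

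miR-126 of endothelium (5.99, 17.6, 9.75 and 12.2 median-scaled RPM) and miR-200a of epithelium (53.4, 39.5, 51.8 and 28.3) overlapped. The epididymal miR-888 cluster was at or near 0, with at most 3 reads for any name. Liver miR-122 overlapped at 19.4, 36.4, 20.7 and 32.5. Of the 9 neuronal names tested 8 were positive after median scaling, beside 152 of all 322 tested names. On that scale 3 of the 9 separated upward and 1 downward, beside 19.9% and 20.2% of all tested names. On the deposited scale the list median was -0.41, with 1 separated upward and 0 downward, beside 2.17% and 26.7%. miR-128 stood at 160, 181, 197 and 219 median-scaled RPM (difference 0.28, 95% interval -0.56 to 1.13).

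miRNAs often discussed in ageing gave no common direction. Of 10 tested names of the senescence list, 5 were higher and 5 lower, the median was 0.00 to 2 decimals, and 2 separated in each direction, the same share as among all tested names (19.9% and 20.2%). miR-21, an injury- and inflammation-linked member, stood at 1880, 2569, 1828 and 2497 median-scaled RPM with a difference of -0.04 (95% interval -0.86 to 0.78). The imprinted DLK1-DIO3 region had 41 tested names with a median of 0.07, 10 separated upward and 5 downward. The upward share was near the 19.9% of all tested names, and the downward share was below the 20.2%. On the deposited scale 0 of the 41 separated upward and 9 downward, beside 2.17% and 26.7%. The miR-17-92 and related clusters, which promote proliferation, had a median of 0.13 over 8 names, 4 separated upward and 1 downward, beside 19.9% and 20.2% of all tested names. Those 4 include both strands of the miR-25 hairpin, and for miR-25* the gap was only 0.003 log2 units. On the deposited scale their list had a median of -0.57, with 0 of the 8 separated upward and 2 downward, beside 2.17% and 26.7%. The miR-30 family was split evenly, 5 up and 5 down, with miR-30e (109, 78.2, 52.4 and 68.8) and miR-30c among the lower names.

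**Figure D5:**
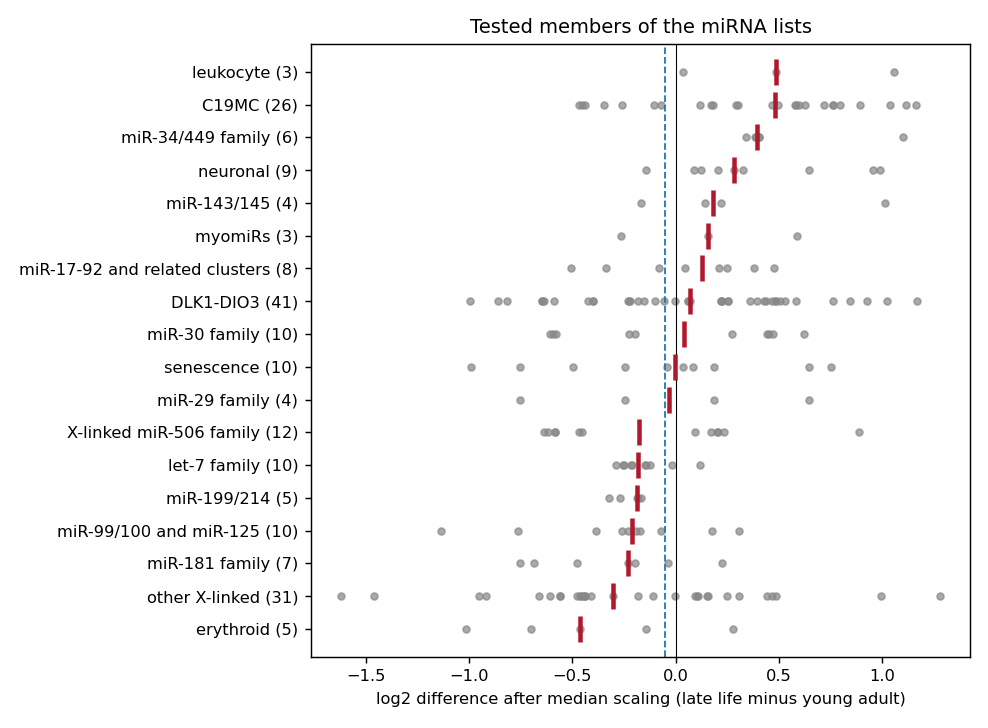
Median-scaled log2 difference (late life minus young adult) of each tested member (grey points) and the median (red bar) of the miRNA lists with at least 3 tested members, with the number tested in brackets. The dashed line is the median of all tested names, -0.05; the leukocyte, C19MC and miR-34 family medians lie at 0.40 to 0.49, and the erythroid median at -0.47. On the deposited scale all of these but the leukocyte median are below 0.

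The ratio of the 2 strands of a hairpin does not depend on the scaling. It was taken for 16 hairpins with at least 5 RPM of each strand in all 4 libraries. It was higher in late life without overlap for 1, miR-221 (log2 difference 0.36), and lower for 3, miR-424 (-0.46), miR-30a (-0.69) and miR-30e (-0.91). For miR-30a the log2 ratio of the main to the star strand was 4.20, 3.74, 3.03 and 3.55 at 6, 7, 22 and 26 years. For miR-30e it was 2.99, 1.94, 1.22 and 1.89, so the 7- and 26-year animals were nearly equal. miR-145 had the widest change, -1.24, but the groups overlapped: the log2 ratio was 2.42 at 6 years and -0.09 to 0.24 in the other 3 animals.

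The late-life animals were last placed in the whole time course. Both lay above all 10 other animals on both scales for 1 name, miR-518b of C19MC, with 11 and 10 reads. Both lay below all 10 for 5 names: miR-1277, miR-542-5p, miR-433, miR-409-5p and miR-136, each with at most 30 reads in a late-life library. miR-433, miR-409-5p and miR-136 come from DLK1-DIO3, a region with 41 of the 322 tested names and a median difference of 0.07. miR-433 stood at 12.2 and 10.5 median-scaled RPM in late life, against 16.0 to 174 in the other animals. After median scaling alone 26 names lay above and 12 below, and on the deposited scale alone 2 and 21.

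miR-10b, which lies beside HOXD4, was among those below after median scaling only and was picked out here after its values were seen. It stood at 1505 to 2314 median-scaled RPM in the neonates, 961 to 1305 in the juveniles and 614 to 784 in the peripubertal animals. The young adults had 583 and 602 and the late-life animals 438 and 484, so the ranges of the 5 age groups did not overlap. The difference between late life and young adult was -0.36. On the deposited scale the 26-year animal (301 RPM) lay between the young adults (606 and 299).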

How the data were processed

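Per the labels' protocols, total RNA from frozen testis was extracted with Trizol and small RNA libraries were sequenced on an Illumina Genome Analyzer. The authors deposited RPM values (reads scaled to a common library total, whose make-up the labels do not define) for 538 miRNA names with the human prefix. Per the submitters' processing notes, CASAVA 1.4 and Bowtie were used; genome build and annotation: not given in the sources used here. Sample descriptions speak of human individuals, while organism, title and source name the macaque, which was taken.

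All values (100%) were whole multiples of 1 read within 0.01 reads, so reads and totals were recovered; 1 read was worth 0.178 to 0.297 RPM. The reads carry no molecular identifiers, so intervals on reads cover counting error only. A count of 0 allows up to 3 reads. Names whose reads agreed within 2% in every library (miR-513b and miR-513c; miR-199b-3p and miR-199a-3p) entered the listed share once per pair.

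limma 3.58.1 (R 4.3.3; trend and robust) was fitted to log2(value + 1) of 12 animals in 5 age groups set from the age labels, with technical libraries averaged and Benjamini-Hochberg adjustment over 322 names. Pseudocounts understate changes of low names. Each animal is a separate replicate. As alternatives the recovered reads were tested with edgeR 4.0.16 and with DESeq2 1.42.0. Scripts were tested on simulated data.

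Named miRNAs had a mean of at least 10 RPM and groups that did not overlap on both scales (up to 12 per direction), or were the 3 most abundant of a list, the 5 most abundant of a group, or the 3 hairpins most changed in arm ratio per direction. The comparison, lists and rules were chosen with earlier results of these data known. Neighbouring hairpins (within 10 kb) were read from RefSeq's macaque gene table; 300 of the 322 names matched a miRNA gene there. List membership follows human names. The miR-202 list had no name, and the H19-IGF2 list had 1 (miR-675) but none tested.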

Additional observations from a re-analysis of the deposited data

How the results depend on the processing

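All 26 alternative fits of the comparison called 0 names, with 0 to 51 names at an unadjusted p under 0.05 and smallest adjusted p from 0.128 to 1 over these fits (0.0744 as reported); they covered pseudocounts, filters, the 4 animals alone, limma settings, a term for the run of library numbers, each animal left out, and edgeR and DESeq2. Median-scaled differences of names chosen for not overlapping cannot change sign when 1 animal is left out, but their sizes did: miR-145* ran from 0.13 to 1.90, miR-192 from 0.26 to 1.71, miR-503 from -1.60 to -0.30 and miR-520a-3p from 0.51 to 1.72, while miR-181b ran from -0.81 to -0.70. The listed-read difference ran from -20.2 to -1.35 points with 1 animal left out. The count of names without overlap depended on the scale: 45 on both scales became 12 at a mean of at least 10 RPM, 93 on the deposited scale alone, 129 on the median scale alone and 2 with a gap of at least 1. Added after the data were seen, a gap of at least 1 on the median scale alone gave 3, TMM scaling 117 and listed-read scaling 118. The 16 hairpins became 5 at 20 RPM. The 6 names beyond all other animals became 0 at a mean of at least 10 RPM, 23 on the deposited scale alone and 38 on the median scale alone. The cause of these shifts was not tested. By replicate number no paired analysis was possible because those numbers in the labels mark technical libraries of the animals of 16 and 1487 days; the run of library numbers was used as a term instead and called 0. With 2 animals a group, and 9.00% of 1 library in listed miRNAs, names of few reads carry wide counting error.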
